A study of Mus musculus with 281 samples.

Results

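Carbonic anhydrases were followed gene by gene in single cells of the mouse stria vascularis, the epithelium of the cochlear lateral wall. The 10 genes were those listed by name for this question, Car2, Car3, Car4, Car5b, Car8, Car9, Car11, Car12, Car13 and Car14, out of 47752 genes in the deposited gene table. Cells were picked with a glass micropipette from male mice on the 129S6 background and profiled by Smart-Seq2, which amplifies full-length cDNA of one cell. Cells came from Slc26a4+/+ mice (61.2% of all cells, 22 to 42 days old), Slc26a4+/- mice (40 cells, 26 to 33 days old) and Slc26a4-/- mice (69 cells, 24 to 44 days old). Slc26a4 encodes pendrin, an exchanger of chloride, iodide and bicarbonate, and no other allele or treatment was given for any group.

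The labels tie no cell to a mouse, so each genotype counted as 1 sample. Levels are therefore given as means over cells with the lowest, the median and the highest cell, and a difference between cells is not a difference between animals. Cell types were called by clustering all cells, with the carbonic anhydrases and Slc26a4 left out of the genes used. Clusters were named only where a fixed list of markers fitted, which gave 97 cells like intermediate cells (IMC-like), 35 like root cells (RC-like), 34 like spindle cells (SC-like) and 21 like marginal cells (MC-like). In Slc26a4+/+ mice the summed markers of a type had medians of 56467 CPM for IMC-like, 44187 for SC-like, 12916 for RC-like and 58602 for MC-like cells (CPM, estimated counts scaled to one common total per cell). Some named cells also held markers of another type. MC markers reached 28769 CPM in RC-like cells, where MC-like cells began at 26001 CPM. IMC markers reached 15670 CPM in RC-like and 15693 CPM in SC-like cells, where IMC-like cells began at 12624 CPM. The part of such cells in the level of a gene was not tested. A cluster of 77 cells led by Slc4a1 and one of 17 cells led by Crhbp stayed unnamed, the first because it mixed cells with IMC, erythroid and neutrophil precursor markers. Depth ran from 1848 to 5452520 counts in Slc26a4+/+ cells (20 of them under 100000), 467483 to 7932729 in Slc26a4+/- and 198085 to 5111599 in Slc26a4-/- cells. Profiles carried 4 run dates, and Slc26a4+/- cells came from run date 4 alone.

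Carbonic anhydrases speed the conversion of carbon dioxide and water into bicarbonate and a proton, and so set how fast a cell can supply either to its transporters. The family is divided by where the enzyme sits: Car2, Car3 and Car13 in the cytosol, Car5b in mitochondria, Car4 tethered to the outer surface by a lipid, and Car9, Car12 and Car14 across the membrane with the catalytic part outside. Car8 and Car11 have the fold but lack catalytic activity. In the stria, intermediate cells lie between the marginal cells that face the endolymph and the basal cells. The authors name spindle and root cells as pendrin-expressing cells, and their staining also shows pendrin in the spiral prominence and outer sulcus.

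The largest part of the carbonic anhydrase RNA in each cell type came from one or a few of the genes. Car14 led in IMC-like cells, Car12 led in RC-like and MC-like cells, and SC-like cells had no single leader. Because levels of different genes can be compared only per length, the share of each was taken from TPM (the transcript measure that is divided by length and scaled to one total per cell). The 10 genes summed to a mean of 3851 TPM in IMC-like cells of Slc26a4+/+ mice (48 cells, range 1173 to 6680), and Car14 was the highest of them in 42 cells and Car2 in the other 6. In RC-like cells the sum averaged 2788 TPM (16 cells) and Car12 was the highest in 12 cells. In MC-like cells it averaged 1740 TPM (14 cells) with Car12 highest in 11. In SC-like cells it averaged 1304 TPM (23 cells), with Car13 and Car12 highest in 7 cells each and Car3 in 6. Pooled over cells, a large part of the Car12 TPM was that of its 2 retained-intron transcripts, 76.3% in RC-like, 46.2% in MC-like, 66.7% in SC-like and 73.7% in IMC-like cells. Genes with the catalytic part outside the cell held 69.03% of the mean sum of IMC-like, 83.2% of RC-like and 93.5% of MC-like cells. For SC-like cells they held 22.3%, and cytosolic enzymes held 77.3%. Most of that cytosolic part was Car3, whose coding transcript averaged 677 TPM, while Car13 made up 14.5% of the sum. Only 6 of the 23 SC-like cells held Car3 at 1000 CPM or more, so the cytosolic share was carried by a few cells.

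**Figure D1:**
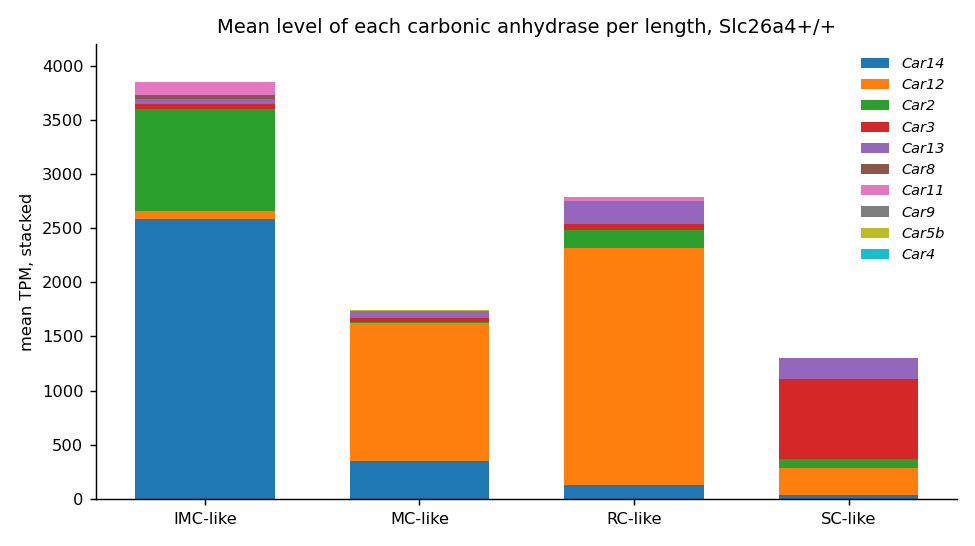
Stacked bars of the mean TPM of the 10 carbonic anhydrases in the Slc26a4+/+ cells of each named type (48 IMC-like, 14 MC-like, 16 RC-like and 23 SC-like cells; no error is drawn). Car14 makes up most of the IMC-like bar, Car12 most of the RC-like and MC-like bars, and the Car3 part of the SC-like bar rests on few cells.

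The promoters of Car14 and Car12 are shown because Car14 led in IMC-like cells and Car12 in RC-like and MC-like cells. Both are from RefSeq on GRCm38.p6 and run 5′ to 3′ along the gene from 250 bases before to 50 bases after the start. Capitals mark matches to the motifs that were searched on both strands. Car14 lies on the minus strand at chr3:95904636-95904935 and Car12 on the plus strand at chr9:66713436-66713735.
Car14: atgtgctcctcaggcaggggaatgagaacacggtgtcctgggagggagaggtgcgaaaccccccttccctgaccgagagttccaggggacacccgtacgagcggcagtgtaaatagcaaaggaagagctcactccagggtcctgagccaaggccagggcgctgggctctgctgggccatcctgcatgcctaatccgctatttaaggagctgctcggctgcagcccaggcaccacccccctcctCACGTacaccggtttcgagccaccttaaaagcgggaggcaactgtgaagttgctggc
Car12: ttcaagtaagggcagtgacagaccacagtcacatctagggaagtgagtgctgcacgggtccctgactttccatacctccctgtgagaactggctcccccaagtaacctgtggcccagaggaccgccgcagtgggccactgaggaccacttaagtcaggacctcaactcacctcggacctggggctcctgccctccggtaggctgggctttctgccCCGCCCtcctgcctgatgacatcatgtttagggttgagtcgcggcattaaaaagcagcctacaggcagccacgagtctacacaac
Of the 10 genes, 6 had an entry. The Car14 window held ACGTG, the core of the hypoxia response element, read on the other strand as CACGT, and 19.6% of 32851 promoters held it. The Car12 window held the GC box GGGCGG, read as CCGCCC, and 35.7% of promoters held that. Neither window held the E boxes CACGTG (7.15% of promoters, each of which also counts as ACGTG) or CATGTG (14.2%), nor TATAAA (13.6%). A match of a few letters is a description of the sequence and not a binding site.

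**Figure D2:**
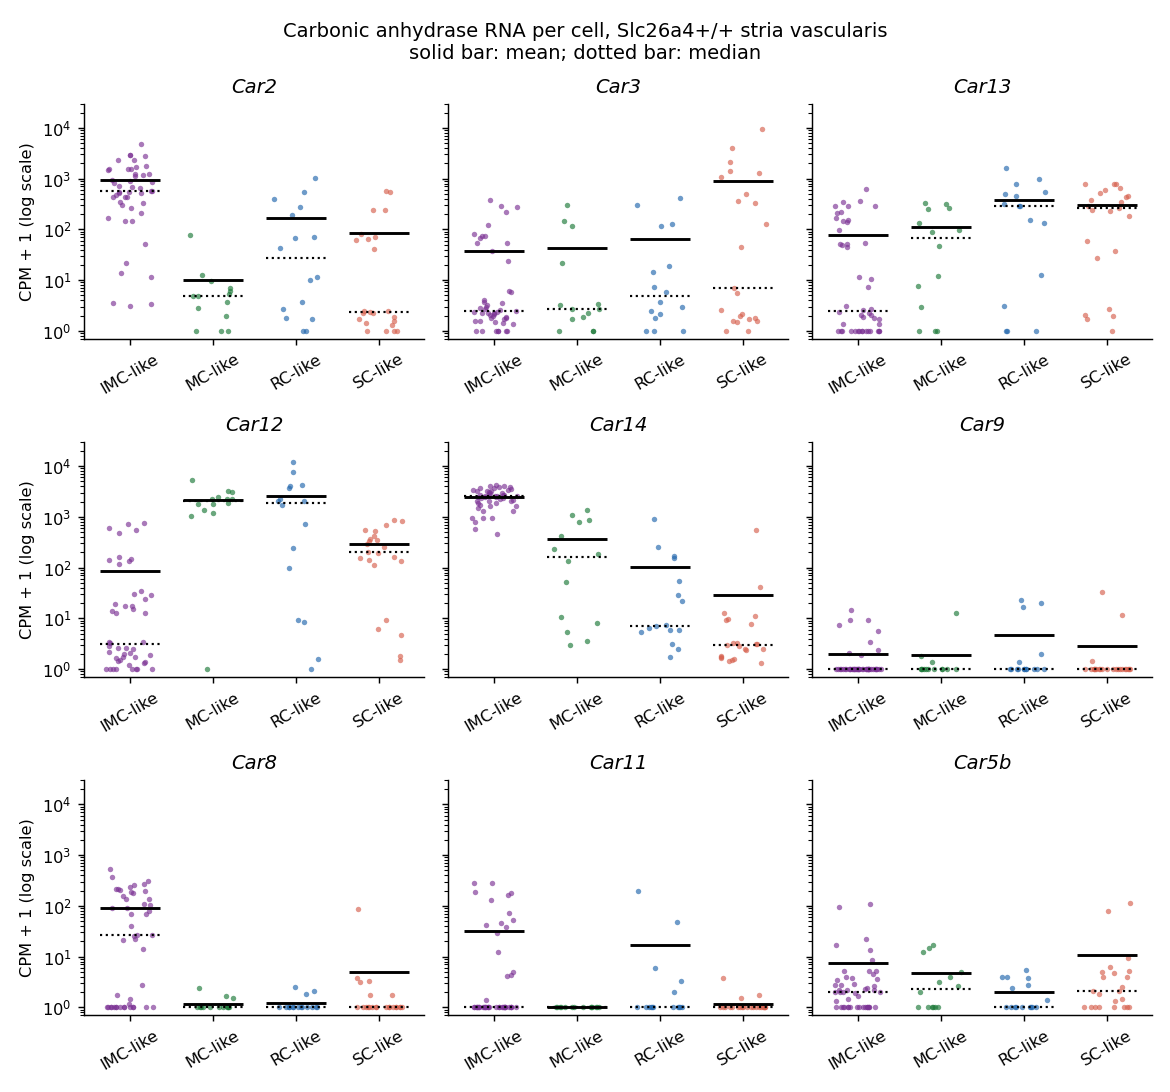
CPM + 1 on a log axis for 9 carbonic anhydrases in single Slc26a4+/+ cells, by named type; each point is a cell, the solid bar is the mean and the dotted bar the median. Car14 fills a narrow band in IMC-like cells, Car12 a narrow band in MC-like cells, and Car3 is high in few SC-like cells; Car4 is not drawn because no count was found.

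Car14 (ENSMUSG00000038526, chr3:95897768-95904691) encodes a membrane-spanning enzyme whose active site faces outward. Its mean in Slc26a4+/+ IMC-like cells was 2459 CPM, with a lowest cell of 450, a median of 2527 and a highest of 4249. No IMC-like cell was without it, and 42 of 48 cells stood at 1000 CPM or more. In MC-like cells the mean was 370 CPM (lowest 2.00, median 160, highest 1376). Ranges of the 2 types therefore overlapped, but in all 6 collection sessions with both types the IMC-like mean was the higher. Car14 averaged 101.9 CPM in RC-like cells, with a median of 6.19. In SC-like cells it averaged 28.2 CPM with a median of 2.02, and 83.5% of their sum came from the cell with 1848 counts, in which the value of 541 CPM is a single count. At least 1 count of Car14 was found in 97.9% of all cells, so traces near 2 CPM did not separate the types while the level did.

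Car14 varied among MC-like cells with the run date. The 4 Slc26a4+/+ MC-like cells of run date 2 held 2.00 to 9.64 CPM, and the 2 Slc26a4-/- ones of that date held 2.08 and 2.57 CPM. In run date 1 the 2 cells held 428 and 869 CPM, in run date 3 the 8 cells ran from 2.53 to 1376 CPM, and in run date 4 the 5 cells of the other genotypes ran from 97.4 to 931 CPM. Their Car12 level did not follow this pattern, with run date means of 1699, 2254 and 2210 CPM for run dates 1 to 3. What part the run date had in the Car14 level was not tested. The Car14 3′ end overlaps Aph1a on the other strand, and the library preparation does not mark strand.

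Genes most like Car14 over the Slc26a4+/+ cells of the 4 named types were Hpse (r = 0.87), Dkk3 (r = 0.86) and Gpnmb (r = 0.85) of 9741 compared. These are correlations across cells of log2(CPM + 1), and the cells share types, sessions and depth. Hpse encodes heparanase, and Gpnmb, a glycoprotein of pigment cells, was among the IMC markers. All 3 were highest in IMC-like cells, at means of 7609, 3826 and 7419 CPM.

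Car12 (ENSMUSG00000032373, chr9:66713686-66766845) encodes another membrane-spanning enzyme with its active site outside. It was high in RC-like cells at a mean of 2534 CPM (lowest 0, median 1865, highest 11823) and in MC-like cells at 2149 CPM (lowest 0, median 2052, highest 5409). The order of the 2 types was not settled by these few sessions. The RC-like mean was higher in 3 of 4 sessions with both, and the order turned in 2 of 14 other settings tried. The spread was unlike in the 2 types. In MC-like cells 13 of 14 cells stood at 1000 CPM or more, while in RC-like cells 9 of 16 did and 5 lay under 100 CPM. SC-like cells averaged 285.3 CPM (lowest 0.55, median 206.3, highest 861), and MC-like cells were higher in all 5 sessions with both. IMC-like cells averaged 84.2 CPM with a median of 2.10. The genes most like Car12 were Epn3 (r = 0.65), Gas2 (r = 0.63) and Slc44a3 (r = 0.63), the last of which belongs to a family of choline transporter-like proteins.

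Within RC-like cells Car12 and Slc26a4 were found in the same cells. In Slc26a4+/+ RC-like cells, 9 of 16 cells had at least 10 counts of both, 2 had them of Car12 alone, none had them of Slc26a4 alone and 5 of neither. In the 9 cells with Slc26a4 the Car12 level ran from 720 to 11823 CPM with a median of 3769, and in the 7 cells without it from 0 to 1709 CPM with a median of 8.23. Both sets held RC markers at like levels, with medians of 13622 and 12210 CPM, and both came from several sessions (8 and 6). SC markers were at medians of 1736 and 1561 CPM. The sets were less alike in IMC markers (829 and 1604 CPM) and MC markers (977 and 521 CPM), and the part of these was not tested. Across these 16 cells Pearson's r was 0.88 and Spearman's rho 0.90 on log2(CPM + 1), and Car12 stood at rank 2 of 8745 genes for its likeness to Slc26a4, after Galnt7 (r = 0.96). No p is given, since cells share sessions and libraries. Leaving out the 2 cells farthest from the median of Slc26a4 left an r of 0.85, and thinning cells to 100000 counts (15 cells deep enough) also gave 0.85. The r with log2 depth was -0.02 for Car12 and 0.17 for Slc26a4, and the median depth was 1239083 counts in the 9 cells and 676882 in the other 7. The part of depth in the relation was not tested.

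The same was seen less tightly in cells of the other genotypes. In 13 Slc26a4-/- RC-like cells r was 0.58 and rho 0.62, with 6 cells holding both genes, 2 Car12 alone, 1 Slc26a4 alone and 4 neither. In these cells r with log2 depth was 0.59 for Car12 and 0.45 for Slc26a4, and thinning to 100000 counts gave an r of 0.63. In 6 Slc26a4+/- RC-like cells r was 0.74. Over all 35 RC-like cells r was 0.72 and rho 0.77, and within run dates it was 0.96 (run date 1, 6 cells), 0.53 (run date 2, 7 cells) and 0.76 (run date 4, 18 cells). Whether r differed between genotypes was not tested.

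In Slc26a4+/+ SC-like cells the level of Car12 did not follow that of Slc26a4, and MC-like cells had Car12 without Slc26a4. In these 23 SC-like cells, 17 of which held Slc26a4 at 10 counts or more, r was -0.01, and 13 of the 17 held Car12 as well. In 9 Slc26a4-/- SC-like cells r was 0.47 and rho 0.38 (0.61 with cells thinned), with 1 cell holding both genes at 10 counts, 3 Slc26a4 alone and 5 neither. MC-like cells had Car12 at 2149 CPM beside Slc26a4 at 0.33 CPM. Among the other carbonic anhydrases of Slc26a4+/+ RC-like cells, r with Slc26a4 was -0.47 for Car2, -0.36 for Car14, -0.02 for Car3 and 0.00 for Car13. In Slc26a4-/- RC-like cells these were 0.09, 0.22, -0.37 and 0.29.

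**Figure D3:**
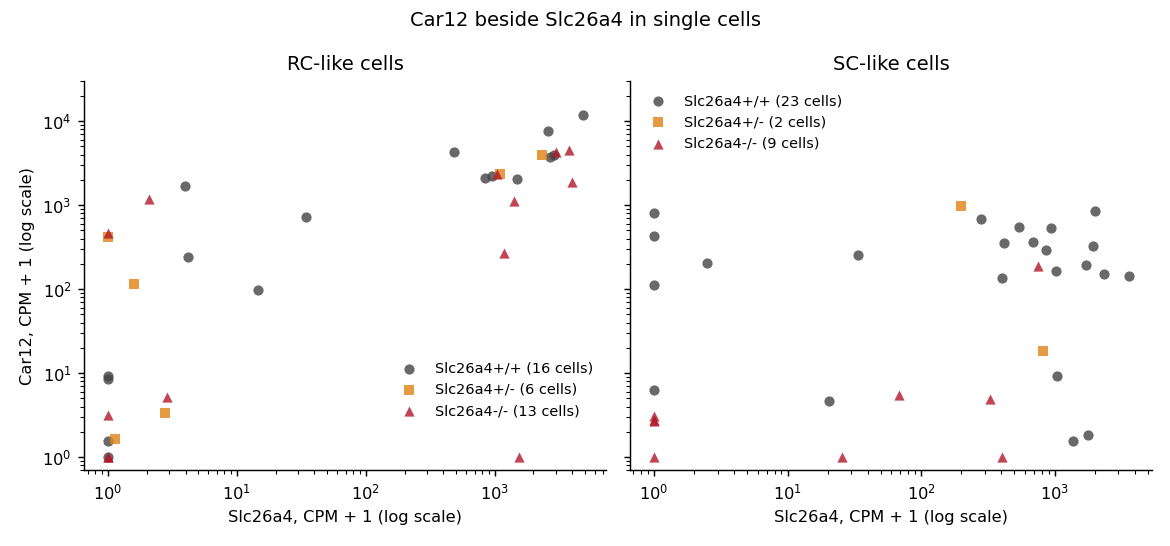
Car12 against Slc26a4 in single cells, both as CPM + 1 on log axes, in RC-like cells on the left and SC-like cells on the right; symbols give the labelled genotype. In RC-like cells Car12 is high where Slc26a4 is high (r = 0.88 in 16 Slc26a4+/+ cells), while in SC-like cells both high and low Car12 occur at high Slc26a4 (r = -0.01 in 23 Slc26a4+/+ cells).

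Pooled over the cells of a type, much of the Car12 signal did not come from the full coding transcript. Of 5 annotated transcripts, 3 are coding (3716, 3639 and 614 bases) and 2 are retained introns (710 and 1652 bases). The coding transcript of 3716 bases and 11 exons and the retained-intron one of 1652 bases and 8 exons are set side by side. These 2 sequences share the last bases of exon 8 up to chr9:66753821 on GRCm38 and then part. The coding one goes on at the next exon (chr9:66762403), and the retained-intron one reads on into the intron for 653 bases (chr9:66753822-66754474) and lacks the last 3 exons. The stretch around that point is shown because it is what tells the transcripts apart. It has 25 bases on each side on the plus strand, and capitals mark where they differ.
Car12 coding transcript: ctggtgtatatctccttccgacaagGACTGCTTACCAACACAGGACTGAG
Car12 retained-intron transcript: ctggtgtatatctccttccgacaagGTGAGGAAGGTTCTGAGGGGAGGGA
Taken as classes, coding transcripts held 80.9% and retained-intron ones 19.1% of the Car12 counts in MC-like cells. The split was 49.04% and 50.96% for RC-like, 69.4% and 30.6% for SC-like, and 47.3% and 52.7% for IMC-like cells. Of the transcripts shown, the coding one held 73.7% and the retained-intron one 12.02% in MC-like cells. They held 46.4% and 41.7% in RC-like, 56.8% and 20.5% in SC-like, and 9.6% and 34.3% in IMC-like cells, where the coding transcript of 3639 bases was the largest at 37.7%. The retained-intron transcript of 710 bases held 18.4% for IMC-like, 10.1% for SC-like, 9.30% for RC-like and 7.08% for MC-like cells. In single cells with at least 100 Car12 counts the share of the 8-exon retained-intron transcript had a median of 14.2% in RC-like cells (11 cells, 0 to 64.99%) and 8.88% in MC-like cells (13 cells, 0 to 25.8%), so the ranges overlapped. The median was 0.57% in SC-like cells (15 cells, 2 over 50%) and 0.84% in IMC-like cells (10 cells, 3 over 50%). The RC-like cells with the most Car12 counts, 21296 and 14652, had shares of 59.6% and 64.99%. They weigh most in the pooled RC-like split. The counts are estimates from a pseudoaligner that divides reads shared by the transcripts, and RNA not yet spliced reads like the retained intron.

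**Figure D4:**
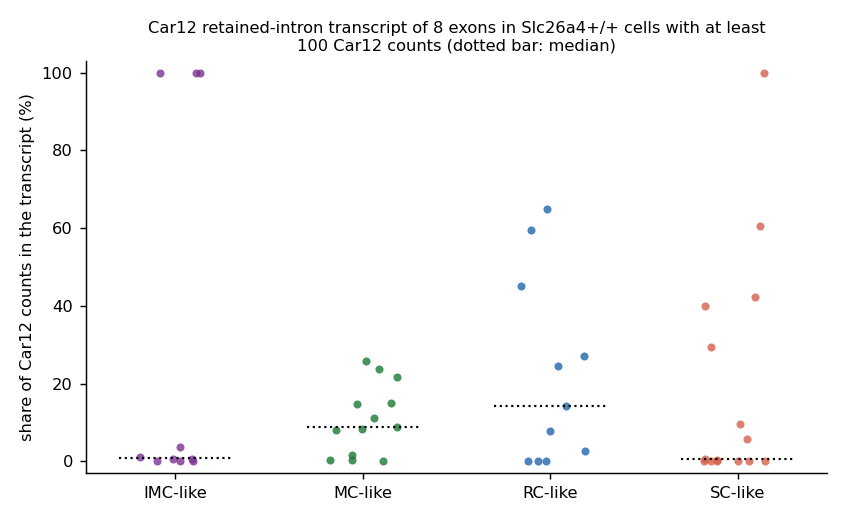
Share of the Car12 counts given to the retained-intron transcript of 8 exons, in percent, in Slc26a4+/+ cells with at least 100 Car12 counts (10 IMC-like, 13 MC-like, 11 RC-like and 15 SC-like cells); each point is a cell and the dotted bar is the median. MC-like cells stay at or under 25.8%, and cells of the other types reach from 0 to 64.99% or 100%.

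Car2 (ENSMUSG00000027562, chr3:14886273-14900770), the fast cytosolic enzyme also known from red cells, osteoclasts and kidney, was highest in IMC-like cells. The mean there was 940 CPM with a lowest cell of 2.13, a median of 571 and a highest of 4734, and 41 of 48 cells stood at 100 CPM or more. RC-like cells followed at 163.2 CPM (median 25.7), SC-like cells at 83.5 CPM (median 1.34) and MC-like cells at 8.87 CPM (median 3.83). IMC-like cells were higher in 8 of 8 sessions shared with RC-like, 11 of 11 shared with SC-like and 6 of 6 shared with MC-like cells. The order of IMC-like over RC-like held in 13 of 14 settings and turned when each cell took the type of its highest marker score (log2 of -0.35), which brings in cells of the unnamed cluster. The order of RC-like and SC-like cells was not settled, with RC-like higher in 3 of 5 sessions. Within IMC-like cells Car2 did not follow Car14 (r = -0.09 over 48 cells). Genes most like Car2 were C2 (r = 0.74), a complement component, Wdr91 (r = 0.70) and Ednrb (r = 0.70), the endothelin receptor of pigment cells, which was also an IMC marker.

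Car3 (ENSMUSG00000027559, chr3:14863512-14872523) is a cytosolic enzyme of low activity known from muscle and fat. It had its highest mean, 915 CPM, in SC-like cells, but the median there was 6.04 CPM. The lowest cell held 0 and the highest 9696 CPM, and that highest cell held 46.1% of the sum. Only 6 of 23 cells stood at 1000 CPM or more. 1 of these was the cell with 1848 counts in all, so 5 such cells of greater depth remain. RC-like, MC-like and IMC-like cells had means of 63.1, 42.6 and 37.2 CPM. SC-like cells were higher than RC-like cells in 3 of 5 sessions, and higher than IMC-like cells in 6 of 11, so the order of the means was carried by a few cells. In the 6 high SC-like cells the 5 markers of fat and muscle summed to at most 7.01 CPM, with a median of 0.38, while SC markers had a median of 60814 CPM. Fibrocyte markers in them ran from 0 to 1082 CPM with a median of 9.67, the highest in the cell with 1848 counts. Of the 5 fibrocyte markers, 4 stayed under 10 counts in all 6 cells.

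Car13 (ENSMUSG00000027555, chr3:14641727-14663002) is the third cytosolic enzyme and lies beside Car3 and Car2 on the chromosome. It was found at like levels in the 2 pendrin types. RC-like cells averaged 380 CPM (lowest 0, median 285.8, highest 1611) and SC-like cells 306 CPM (lowest 0, median 262.1, highest 789). RC-like cells were higher in 2 of 5 sessions with both, so the order of these neighbours was not settled. MC-like cells averaged 110 CPM and IMC-like cells 75.03 CPM, the latter with a median of 1.48. RC-like cells were higher than IMC-like cells in 7 of 8 sessions and lower in none. Of the 17 SC-like cells with at least 10 counts of Slc26a4, 13 also held Car13, and so did 4 of the 6 others. The level of Car13 did not follow that of Slc26a4 across SC-like (r = 0.08, 23 cells) or RC-like cells (r = 0.00, 16 cells). Nor did it follow Car12 across SC-like cells (r = -0.09).

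Car8 (ENSMUSG00000041261, chr4:8143362-8239041), which has no catalytic activity and is known to bind an inositol trisphosphate receptor, was found mainly in IMC-like cells among the named types. The mean there was 91.2 CPM (lowest 0, median 25.9, highest 533) and 17 of 48 cells stood at 100 CPM or more. SC-like, RC-like and MC-like cells had means of 4.05, 0.22 and 0.19 CPM, and no cell of these types reached 100 CPM. With cells thinned to 100000 counts Car8 was seen in 60.4% of IMC-like, 14.3% of SC-like, 6.67% of RC-like and no MC-like cell, against unthinned shares of 68.8%, 26.1%, 18.8% and 21.4%. The order of IMC-like over SC-like cells held in 9 of 11 sessions with both, was turned in 1, and held in 13 of 13 settings.

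Car11 (ENSMUSG00000003273, chr7:45699843-45704682), the other relative without catalytic activity, was sparse. It averaged 31.7 CPM in IMC-like cells (median 0, highest 281.3) and 15.9 CPM in RC-like cells, where 1 cell held 78.2% of the sum. No count was found in 14 MC-like cells, an exact binomial 95% interval of 0 to 23.2% for the share of cells with a count. The gene lies next to Dbp, and its value in the gene table was below the sum of its transcripts in some cells.

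The remaining 3 genes gave little or nothing. Car5b (ENSMUSG00000031373, chrX:163976822-164027997), the mitochondrial enzyme, had means of 9.99 CPM in SC-like, 6.35 in IMC-like, 3.79 in MC-like and 1.05 in RC-like cells. Car9 (ENSMUSG00000028463, chr4:43506966-43513729), a membrane enzyme induced by low oxygen, averaged 3.62 CPM or less in every type. None of its counts went to its full coding transcript, and 87.4% went to a processed transcript without a coding frame. The start of Car9 overlaps the antisense gene Gm12454, and reads of the 2 cannot be told apart without strand. Car4 (ENSMUSG00000000805, chr11:84957786-84966044), the lipid-anchored enzyme, had no count in any cell, which allows a share of up to 1.07% of cells with a count. Intervals and limits of this kind cover counting error only. In all, 7 of the 10 genes reached a mean of 10 CPM in at least 1 named type, and Car4, Car5b and Car9 did not.

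Genes that work beside carbonic anhydrases were taken from 4 fixed lists. The list called bicarbonate transporters holds 16 genes of the SLC4 and SLC26 families, and whether each carries bicarbonate was not checked. Of these 16, 7 reached 10 CPM in a named type. Slc26a4 was the highest, at 480 TPM in RC-like and 416 in SC-like cells, against 0.5 in IMC-like cells and 0.1 in MC-like ones. The anion exchanger Slc4a2 was at 78.7 TPM in IMC-like, 72.8 in RC-like, 64.7 in SC-like and 12.1 in MC-like cells. Slc4a8, which couples sodium and bicarbonate, was highest in IMC-like cells at 84.1 TPM, and Slc4a11 in RC-like cells at 48.4 TPM. IMC-like cells, with the largest sum of carbonic anhydrases, thus held little Slc26a4.

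Of 15 genes of proton transport, 11 reached 10 CPM. The proton pump subunit Atp6v0a1 was highest in IMC-like cells (401 TPM) and its relative Atp6v0a2 in MC-like cells (258.7 TPM against 49.7 or less elsewhere). Tcirg1, another form of that subunit, was at 165.2 TPM in RC-like and 152.5 in IMC-like cells, and Atp6v1b2 at 150.6 TPM in SC-like cells. Of 10 hypoxia targets, 8 reached 10 CPM. Ldha and Pgk1 of glycolysis were found in all 4 types, from 321.5 to 499 TPM and from 114.3 to 362 TPM. Adm (adrenomedullin) was at 246.9 TPM in IMC-like cells and 1.1 or less in the others, and Vegfa at 150.5 TPM in IMC-like, 125.2 in MC-like and 0.4 in SC-like cells, although Car9, a target of the same response, was near 0 throughout. Of 6 other carbonic anhydrases, 1 reached 10 CPM. That was Car7, at 22.4 TPM in RC-like and 20.0 in SC-like cells, in each with 1 cell of at least 10 counts.

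The genotypes were compared within a cell type, as carbonic anhydrases might differ where pendrin is lacking. SC-like and RC-like cells were joined as pendrin cells, and the cluster led by Crhbp was left out. The targeted gene was looked at first. Slc26a4 RNA averaged 969 CPM in 39 Slc26a4+/+ pendrin cells (median 541), 554 in 8 Slc26a4+/- cells (median 100.5) and 793 in 22 cells labelled Slc26a4-/- (median 45.7). In run date 4 the Slc26a4-/- cells averaged 1898 CPM and the Slc26a4+/+ cells 1214. The RNA was therefore still present in cells labelled Slc26a4-/-, and it does not check the labels; the labels do not say which part of the gene is disrupted. With 1 sample a genotype there is no test, and a gene counts as past the fold where its mean CPM (plus 1) differs at least 2-fold and reaches 10 CPM in either genotype.

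In IMC-like cells of Slc26a4-/- mice (29 cells against 48), 3 of the 7 carbonic anhydrases that reached 10 CPM were past the fold, 1 higher and 2 lower. Over all 9528 genes 28.7% were past it (11.8% higher, 16.8% lower). The median log2 difference was -0.72 over the 7 and -0.11 over all genes. Car8 was the one that was higher, at a mean of 259.3 CPM against 91.2 (log2 of 1.497). Its median was 178.8 CPM against 25.9, and 21 of 29 cells stood at 100 CPM or more against 17 of 48. The lowest cells held 0 and the highest 715 and 533 CPM, so the cells overlapped widely. Car8 was higher in both run dates that held both genotypes, at 190 CPM (18 cells) against 65.1 (7 cells) in run date 2 and 373 CPM (11 cells) against 101.3 (7 cells) in run date 4. Session means ran from 52.03 to 465 CPM in 9 Slc26a4-/- sessions and from 0 to 215.9 CPM in 17 Slc26a4+/+ sessions. It was past the fold in all 19 other settings tried, with log2 values from 1.07 to 2.63. Slc26a4+/- cells held 123.1 CPM (20 cells, median 78.4), not past the fold. Summed IMC markers also differed between the genotypes, with medians of 87539 CPM for Slc26a4-/-, 98048 for Slc26a4+/- and 56467 for Slc26a4+/+ cells. Their part in the Car8 level was not tested.

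Car12 and Car3 were the low ones, and both from few cells. Car12 averaged 14.0 CPM against 84.2 in IMC-like cells, with medians of 1.66 and 2.10, and the difference was -3.34 (log2) in run date 2 and -0.28 in run date 4. Summed MC markers in the IMC-like cells had medians of 622.5 CPM in Slc26a4+/+ (highest cell 5453), 246.7 in Slc26a4+/- (highest 962) and 195.6 in Slc26a4-/- cells (highest 869), and their part in the Car12 level was not tested. Car3 averaged 17.2 CPM against 37.2, with equal medians of 1.42, and within run dates 2 and 4 the sign turned (log2 of 0.51 and 0.72). Neither was past the fold within both run dates.

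The highest enzymes of IMC-like cells were not past the fold in either genotype. Car14 averaged 2459 CPM for Slc26a4+/+, 3013 for Slc26a4+/- and 1835 for Slc26a4-/- cells, and in run date 4 alone 2984, 3013 and 2619 CPM. Car2 averaged 940, 1311 and 558 CPM. Against Slc26a4+/+ of the same date, Slc26a4-/- cells held less Car2 in run date 2 (308 against 668 CPM) and in run date 4 (968 against 1699 CPM). In Slc26a4+/- cells 3 of 8 carbonic anhydrases were past the fold (29.3% of all genes, 10.8% higher and 18.5% lower), Car5b higher at 20.8 against 6.35 CPM, Car12 lower at 37.7 and Car3 lower at 12.7 CPM. Car12 and Car3 turned sign within run date 4, the only date with both genotypes.

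**Figure D5:**
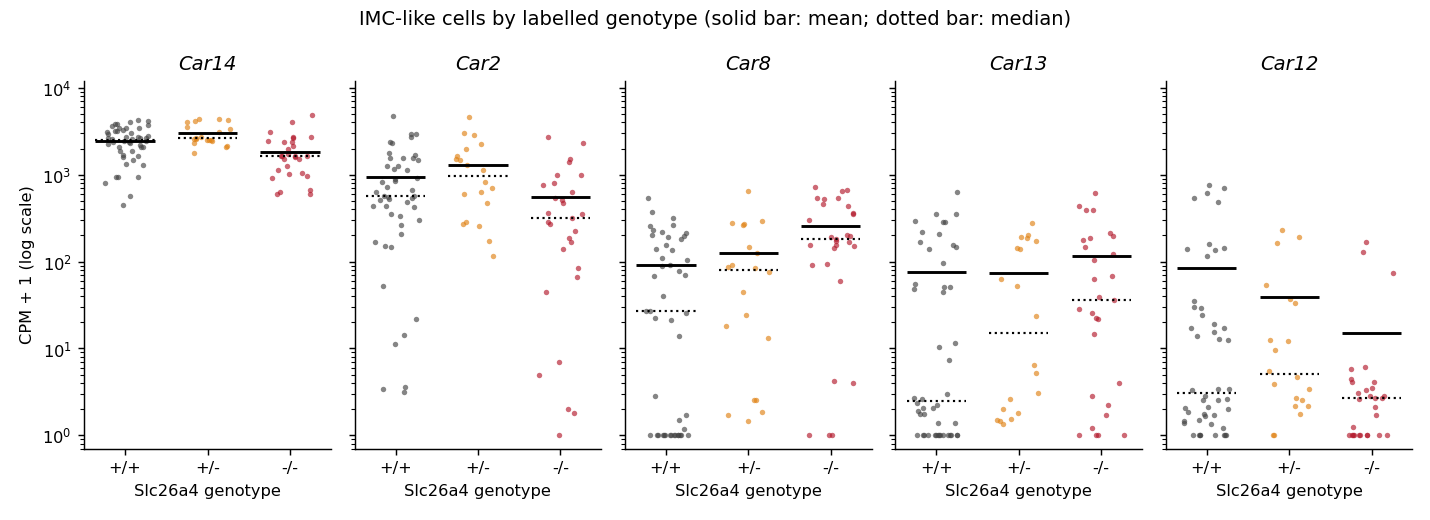
CPM + 1 on a log axis for 5 carbonic anhydrases in IMC-like cells by labelled genotype (48 Slc26a4+/+, 20 Slc26a4+/- and 29 Slc26a4-/- cells); each point is a cell, the solid bar is the mean and the dotted bar the median. Car8 has its highest median, 178.8 CPM, in Slc26a4-/- cells, Car14 stays within 450 to 4879 CPM in all 3 genotypes, and every panel shows overlapping cells.

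In pendrin cells of Slc26a4-/- mice 2 of 6 carbonic anhydrases were past the fold, none higher and 2 lower, against 37.7% of all 10367 genes (15.5% higher, 22.2% lower). Car14 averaged 12.2 CPM against 58.4, with medians of 4.79 and 4.45, and Car3 234.8 CPM against 565, with medians of 44.7 and 4.94. A mean that is lower beside a median that is as high or higher comes from the few highest Slc26a4+/+ cells. Car12 averaged 739 CPM against 1208 and Car13 475 against 336, neither past the fold. Car13 was higher within both shared run dates (log2 of 1.31 and 1.29), at 480 CPM against 192.9 in run date 2, with 3 Slc26a4+/+ cells, and 464 against 188.6 in run date 4. Car12 pointed opposite ways, at 200.99 CPM against 3987 in run date 2 and 1893 against 945 in run date 4. The 3987 CPM rested on 1 RC-like cell at 11823 CPM. All 9 Slc26a4-/- SC-like cells were of run date 2. The Slc26a4-/- cells of run date 4 were thus RC-like alone, set against Slc26a4+/+ cells of both types. What part this mix of cell types had in the Car12 and Car13 levels was not tested. In Slc26a4+/- pendrin cells (8 cells) 0 of 5 were past the fold, against 47.3% of all genes (19.4% higher, 27.8% lower), with Car12 at 980 CPM and Car13 at 422 CPM.

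The joined group was not made up alike. RC-like cells were 16 of 39 pendrin cells in Slc26a4+/+ mice, 13 of 22 in Slc26a4-/- and 6 of 8 in Slc26a4+/- mice. In RC-like cells alone 5 of 7 were past the fold in Slc26a4-/- mice (51.1% of all genes), among them Car12 at 1236 CPM against 2534 and Car3 at 205.99 against 63.1. In SC-like cells alone Car12 averaged 22.6 CPM in 9 Slc26a4-/- cells (median 1.78) against 285.3 in 23 Slc26a4+/+ cells (median 206.3), 1 of 3 past the fold of 6 (55.5% of all genes were past the fold). The same 9 cells, all from run date 2, held less Slc26a4 (174.05 against 912 CPM) and lower summed SC markers (median 9502 against 44187 CPM), and run date 2 had 2 Slc26a4+/+ SC-like cells. Genotype, run date and marker level cannot be told apart there. Car13 in the same cells was at 308 against 306 CPM. In Slc26a4+/- mice, with 6 RC-like and 2 SC-like cells, 4 of 6 were past the fold in RC-like (57.7% of all genes) and 2 of 5 in SC-like cells (64.6%).

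A second reading took collection sessions as samples. A session is the run date, a number in the profile name that reads as a day, the age and the genotype, and it gave 37 sessions (23, 4 and 10 of Slc26a4+/+, Slc26a4+/- and Slc26a4-/-). It rests on reading the profile names, since no label names a mouse, and a session may hold several mice. Summed counts were tested with edgeR's quasi-likelihood test with the run date as a term, and p-values were adjusted by Benjamini-Hochberg over all genes. No carbonic anhydrase passed in either cell group or genotype. In IMC-like cells of Slc26a4-/- mice 13 of 13218 genes passed (0.0984%), and in pendrin cells 1 of 11951 (0.00837%). With the collection day as a replicate block, chosen after seeing the data, 1 gene passed in each (0.00757% and 0.00837%), with no carbonic anhydrase among them. For Slc26a4+/- no gene passed in either group, where 1250 and 1086 genes had an unadjusted p under the threshold and DESeq2 called 309 and 230 genes.

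In that reading Car8 was higher in Slc26a4-/- IMC-like sessions by a log2 of 1.70 (SE 1.07, edgeR adjusted p = 0.52). SE in this paragraph is worked back from the test, as the size of the log2 value over the square root of F. Car2 was at -0.97 (SE 0.50, edgeR adjusted p = 0.37), the lowest adjusted p of the carbonic anhydrases in IMC-like cells. Car14 was at -0.15 (SE 0.31, adjusted p = 0.92 in edgeR). None of these values was told apart from 0 at this spread between sessions. Car12 in pendrin cells of Slc26a4-/- mice was at -3.20 (SE 1.57, edgeR adjusted p = 0.81). It was at 2.08 without a Slc26a4+/+ session of run date 2 (40 days old), so its sign rested on that session. Over all settings, DESeq2 included, the lowest adjusted p of any carbonic anhydrase was 0.118.

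The lists of neighbouring genes gave differences in both directions, with no test. Of the 16 genes listed as bicarbonate transporters 7 reached the level in IMC-like cells of Slc26a4-/- mice. Slc4a7, Slc4a8 and Slc26a7 were higher past the fold there and Slc4a11 lower. Of 10 hypoxia targets 7 reached it, with none higher and Pgk1, Bnip3 and Adm lower. In pendrin cells of those mice 2 of 7 bicarbonate transporters were higher and 2 lower, 1 of 11 proton transport genes was higher and 1 lower, and 1 of 7 hypoxia targets was higher and 3 lower. In Slc26a4+/- IMC-like cells the counts were 2 higher and 0 lower of 7 bicarbonate transporters, 1 and 0 of 8 proton transport genes, and 2 and 1 of 8 hypoxia targets. In Slc26a4+/- pendrin cells they were 0 and 1 of 5, 3 and 2 of 11, and 0 and 3 of 6. Of the 6 other carbonic anhydrases only Car7 reached the level, in pendrin cells, lower in Slc26a4-/- and higher in Slc26a4+/- mice. Shares past the fold over all genes were those given above for each cell group.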

How the data were processed

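The authors pseudoaligned the reads of each cell to the GRCm38 (mm10) mouse transcriptome with kallisto, whose version and annotation release are not given in the sources used here, and deposited, for every cell, 98492 transcripts with an estimated count and a TPM value. They also deposited a table of estimated counts per gene (47752 genes, 298 columns), made with a script of their own. Of its columns, 17 are of no sample listed here and were not used, and every line names a gene. The deposited counts are estimates, not whole reads, and reads shared by transcripts or related genes are divided by the program. CPM was computed per cell from the gene table, and TPM was summed per gene over the transcripts in GENCODE M21 (30803 genes). That annotation lacked 1288 transcripts, with a median of 0.635% of a cell's counts.

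No cell was left out and no doublet caller was run. Cells were picked one at a time with a micropipette. Cells were clustered with Seurat 5.3.0 in R 4.3.3 (2000 variable genes less those on a list of 577 left out, 10 principal components, resolution 0.8), and naming a cluster took 80% of its cells with one marker list as the top score, and 3 detected markers. A cluster also stayed unnamed where markers of another list outnumbered its own among its 10 leading genes. The same held for a cluster of low depth with none of its own markers there. For 44 cells the top 2 scores were less than 0.25 apart. Names therefore are rebuilt, not the authors' own. For genotypes, mean CPM plus 1 CPM was divided and put on the log2 scale, which understates differences of low genes, among genes with at least 10 CPM in either genotype.

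Sessions were tested with edgeR 4.0.16 on summed counts rounded to whole numbers (TMM scaling, filterByExpr, terms for run date and genotype, adjusted p threshold of 0.05), with DESeq2 1.42.0 and a block for the day read from the profile name as alternatives (genotypes share no replicate number), and p-values measure the spread between sessions. That script was tested on simulated data. Other values were computed with Python 3.11.15, scipy 1.17.1, pandas 2.3.3 and numpy 2.4.6, with plots by matplotlib 3.10.9. Depth per cell limits the precision of low values, and exact binomial 95% intervals and limits from 3 counts cover counting error only, as PCR copies are not counted apart. All 10 carbonic anhydrases are named. From each other list the 4 genes with the highest TPM in a named type of Slc26a4+/+ mice are named, and for the 3 carbonic anhydrases with the highest TPM the 3 genes with the highest r. Genes past the fold on those lists, Galnt7 and genes that overlap a carbonic anhydrase were named after their values were seen. The carbonic anhydrases, lists and tests were chosen with earlier results of these data known. Motifs were searched in RefSeq promoters of the same build. The proton transport list in Slc26a4-/- IMC-like cells is not reported here.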

Additional observations from a re-analysis of the deposited data

Results flagged for a closer look

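Of 11 sets of values (a gene in 4 to 10 cells of one genotype), 2 held a cell that stood far from the rest, past Dixon's 95% critical value. Chance passes it in about 1 set in 20 for normally distributed values, a rate not checked for single cells. Both sets were of the same 8 Slc26a4+/- pendrin cells (6 RC-like and 2 SC-like), so they are not independent, and both far cells were SC-like. Car3 stood at 7509.4 CPM in 1 cell, with the next at 27.8 CPM. In Slc26a4+/+ SC-like cells Car3 was at 1000 CPM or more in 6 cells and lower in 17. Car3 held 82.5% of the mean carbonic anhydrase TPM of the 2 SC-like cells and led in 1 of them. Leaving out the highest cell of each genotype gave Car3 means of 4.54 CPM (Slc26a4+/-) and 325 CPM (Slc26a4+/+). Car14 stood at 342.488 CPM in 1 cell, with the next at 51.3 CPM. Cells are not samples of a genotype, and what sets these cells apart was not tested.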

How the results depend on the processing

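The count of carbonic anhydrases at 10 CPM or more in a named type (7) stayed between 6 and 9 in 15 other settings, and the count past the fold in Slc26a4-/- IMC-like cells (3) between 2 and 4 in 19. In Slc26a4-/- pendrin cells the count was 2, and became 4 with sessions weighted equally and within run date 2, 5 within run date 4, at resolution 0.4 and in RC-like cells alone, and 1 without the highest cell of each genotype, an alternative chosen after seeing the data. In Slc26a4+/- IMC-like cells it was 3, and became 1 in TPM, with a minimum of 50 CPM, with a pseudocount of 10 CPM and within run date 4. In Slc26a4+/- pendrin cells it was 0, and became 1 in TPM, by highest marker score, with sessions weighted equally and within run date 4, 2 without run date 3, without the highest cells and in SC-like cells alone, 3 with logs averaged over cells and with a minimum of 1 CPM, and 4 at resolution 0.4 and in RC-like cells alone.

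With sessions as samples, edgeR called 0 genes (Slc26a4+/-) and 13 genes (Slc26a4-/-) in IMC-like cells and 0 and 1 in pendrin cells. As a percent of genes tested and in the same order, DESeq2 called 2.34%, 10.2%, 1.92% and 1.87%, and edgeR with no run date term 0.231%, 0.769%, 0.170% and 0.268%. In Slc26a4-/- IMC-like cells (0.0984%) the collection day as a replicate block gave 0.00757%, DESeq2's size factors gave 0.151% and sessions of at least 2 cells 0.0384%. In Slc26a4-/- pendrin cells (0.00837%) keeping genes with at least 1 count gave 0.0165%. Leaving out 1 session at a time gave 0 to 0% for Slc26a4+/- in both groups, 0 to 0.00852% for Slc26a4-/- pendrin cells and 0.00759% to 0.265% for Slc26a4-/- IMC-like cells. The lowest of these was without a Slc26a4-/- session of run date 4 (34 days old) and the highest without a Slc26a4+/+ session of run date 3 (32 days old), and a lone session left in an arm is assumed to vary like the others. No carbonic anhydrase was called in any of these fits. Their signs, none called, turned in 22 values (10.2%) in other settings and in 62 of 998 with 1 session left out. Of the values given above for Slc26a4-/-, the day block turned Car14 in IMC-like cells from -0.15 to 0.58 and Car12 in pendrin cells from -3.20 to 5.10. With 1 session left out they ran from -0.34 to 0.32 (highest without a Slc26a4+/+ session of run date 2, 42 days old) and from -3.96 to 2.08. Car8 and Car2 in IMC-like cells kept their signs (5.09 and -1.54 under the block). Slc26a4+/- shares no day with Slc26a4+/+ and has no such fit, and genotypes shared 3 days in IMC-like and 1 in pendrin cells, leaving 3 and 2 residual degrees of freedom.

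Among differences in mean level at least 2-fold, signs turned for Car2 of IMC-like over RC-like cells by highest marker score (log2 of -0.35). They turned for Car3 in Slc26a4-/- IMC-like cells without run date 3 (0.99), at resolutions 0.4 and 1.2 (0.34 and 0.28) and within run dates 2 and 4 (0.51 and 0.72). In Slc26a4-/- pendrin cells they turned for Car3 with logs averaged (0.35), at resolution 0.4 (1.61) and in RC-like cells alone (1.69), and for Car14 within run date 2 (1.24). In Slc26a4+/- IMC-like cells they turned for Car12 with logs averaged (0.085) and within run date 4 (0.57), and for Car3 without run date 3 (0.59) and within run date 4 (0.44). The cause of these was not tested. Some smaller differences turned too. Car13 of RC-like over SC-like cells kept its sign in 10 of 13 settings, Car5b of SC-like over IMC-like in 11 of 13 and Car14 in Slc26a4+/- pendrin cells in 10 of 19. At resolution 0.4 no cluster was named SC-like, and Slc26a4+/+ cells clustered alone gave a name to IMC-like cells only. Among the latter, a cluster of 16 cells had RC as the top score in 100% of them. It stayed unnamed because 1 pericyte marker and no RC marker was among its 10 leading genes. Slc26a4+/- cells have no comparison without run date 4. Depth limits Car9, Car5b and Car11, which had few counts in most cells.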

Other observations

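The unnamed cluster led by Slc4a1 held carbonic anhydrases in 3 kinds of cells. In its 7 Slc26a4+/+ cells whose erythroid markers summed to 10000 CPM or more, Car2 averaged 3957 CPM (lowest 2.2, median 3737, highest 9115) and Car1, a cytosolic enzyme of red cells, 882 CPM (median 229.3). In its 3 Slc26a4+/+ cells with fibrocyte markers at that level Car3 averaged 14424 CPM (4655 to 21365) and Car2 2681 CPM, with Car12 at 3.2 CPM or less and no Car1. In its 35 cells with IMC markers at that level Car14 averaged 1781 CPM (6.7 to 6551) and Car2 312 CPM, with Car1 at 1.5 CPM or less. These sets were made from marker levels after seeing the data and may share cells, so they carry no test.

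The 5 cells of that cluster with at least 1000 CPM of Car3 held fat and muscle markers of 0 to 17.8 CPM and fibrocyte markers of 9.9 to 16899 CPM (median 12432). In the cluster led by Crhbp, 11 Slc26a4+/+ cells averaged 305 CPM of Car12 and 167.1 CPM of Car13, of which 1 cell held 81.8%, and 7.5 CPM of Car14. Of these 11 cells, 8 held Slc26a4 at 10 counts or more, and 7 of the 8 held Car12 as well.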
